A study of Homo sapiens with 12 samples.

Results

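The genes described here are vimentin (VIM), N-cadherin (CDH2), fibronectin (FN1), OB-cadherin (CDH11) and the transcription factors ZEB1, ZEB2, SNAI1, SNAI2, TWIST1 and TWIST2. They were chosen by gene symbol, as mesenchymal markers and regulators of the epithelial-mesenchymal transition (EMT), and are 10 of the 23284 symbols listed in each of 12 RNA sequencing libraries. Of the 10 genes, 7 passed the filter on low values and were tested, while ZEB2, TWIST1 and CDH11 did not pass and are given as levels.

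PANC-1, a human pancreatic ductal carcinoma line, had been transduced with a retrovirus for ZsGreen, a green fluorescent protein, joined to the ornithine decarboxylase degron, so that it builds up where proteasome activity is low, and all cells were kept under G418. The transduced line as such, in which few cells are green, was called degron (-). The brightest cells of a culture enriched by repeated sorting were called degron (++) and used as a model of cancer stem-like cells. Each population has 2 libraries at 0 Gy (48 h), 2 at 4 Gy (30 h), and 2 at 4 Gy (48 h), with gamma rays as the radiation, and the comparisons ask how the genes differ between the populations and with dose and time. The starting point of the hours is not in the labels. The titles of the 6 degron (-) libraries call them ZsGreen-negative, but their descriptions call them d+. Nothing in the labels says that the libraries of a group came from separate cultures, so p-values measure the spread between these libraries, which may be technical.

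Levels are FPKM, fragments per length of transcript and per reads mapped in the library, so that levels of different genes can be set side by side. The depth in reads is unknown, since the tables hold no counts, and steps between low values gave a relative depth of 0.862 to 1.17. FPKM summed to 829654 to 916877 in a degron (++) library and to 707273 to 763064 in a degron (-) library. The 8 markers of ductal carcinoma were each at 1 FPKM or more in all 12 libraries. PANC-1 is known as a line rich in vimentin that has lost CDKN2A by deletion. The degron (++) libraries went against their label on both points and the degron (-) libraries on the second: CDKN2A was at 100.4 to 112 FPKM in degron (++) and at 11.04 to 21.1 FPKM in degron (-). A difference in the origin of the cells and a difference in proteasome activity cannot be told apart in this design.

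EMT is the program by which epithelial cells loosen their junctions and take up mesenchymal shape and motility, in development, wound healing and carcinoma. Transcription factors of the ZEB, SNAIL and TWIST families drive it: ZEB and SNAIL proteins bind E-box elements and repress E-cadherin (CDH1) and other junction genes, and the microRNAs of the miR-200 family and miR-205 oppose ZEB1 and ZEB2. Vimentin, N-cadherin and fibronectin are its classical readouts, and a full EMT is described as a switch from E-cadherin to N-cadherin.

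The genes did not move as a group between the populations. VIM, ZEB1, SNAI1 and TWIST2 were lower in degron (++), while CDH2, FN1 and SNAI2 were higher. ZEB1 and TWIST2 reached the filter of 1 FPKM in 2 libraries only through degron (-), where they are high, so that they had to differ and their differences are given with no test. The other 5 tested genes, which reached it within each population, passed the threshold (limma, Benjamini-Hochberg adjusted p under 0.05) in each of the 3 population comparisons. The background was high, since 77.7% of the 12946 genes tested passed it at 0 Gy (48 h), 79.1% at 4 Gy (30 h), and 76.7% at 4 Gy (48 h). The levels of these 5 did not overlap between the 6 libraries of each population, as for 71.3% of all genes tested. Passing the threshold was thus common among all genes. In bulk RNA, fewer cells that express a gene and less RNA per cell cannot be told apart.

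**Figure D1:**
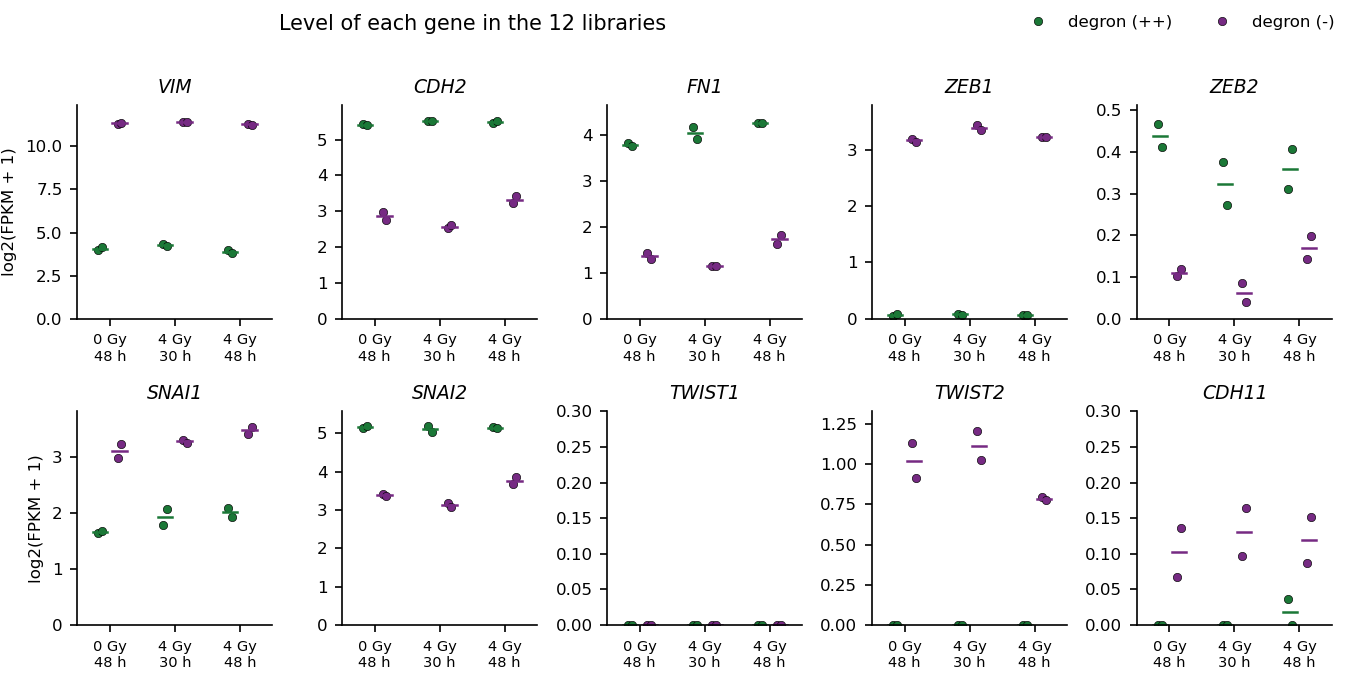
Level of each of the 10 genes as log2(FPKM + 1) in the 12 libraries, with degron (++) in green and degron (-) in purple, points for libraries, bars for group means and a separate vertical scale in each panel. VIM, ZEB1, SNAI1 and TWIST2 sit higher in degron (-), CDH2, FN1, SNAI2 and ZEB2 sit higher in degron (++), and TWIST1 is at 0 throughout.

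The promoter windows of VIM and ZEB1, the most strongly lower genes, and of CDH2 and FN1, the most strongly higher ones, are shown because members of the same program moved in opposite directions. They are the 250 bases before the furthest upstream start in the RefSeq table of GRCh38.p14, read 5′ to 3′ on the strand of the gene. Of the 10 genes, 6 have windows in that table, 13 windows in all. Capitals mark motifs, searched on both strands: the E-box CAGGTG (or CACCTG), the AP-1 site TGANTCA, the CRE TGACGTCA, the GC box GGGCGG (or CCGCCC) and the TATA box TATAAA (or TTTATA). No match of 1 motif overlaps a match of another, but GC boxes overlap each other in FN1.
VIM, chr10:17227991-17228240, plus strand: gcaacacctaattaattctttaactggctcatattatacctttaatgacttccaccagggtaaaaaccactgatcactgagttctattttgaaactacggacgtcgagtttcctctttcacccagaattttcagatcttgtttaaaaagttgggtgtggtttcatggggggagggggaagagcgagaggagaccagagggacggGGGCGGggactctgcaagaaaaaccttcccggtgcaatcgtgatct
ZEB1, chr10:31318167-31318416, plus strand: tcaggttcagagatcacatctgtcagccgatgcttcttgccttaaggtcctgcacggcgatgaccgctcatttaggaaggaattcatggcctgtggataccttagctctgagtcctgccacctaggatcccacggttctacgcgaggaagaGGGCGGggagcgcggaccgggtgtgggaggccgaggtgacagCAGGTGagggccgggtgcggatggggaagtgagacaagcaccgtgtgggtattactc
CDH2, chr18:28177131-28177380, minus strand: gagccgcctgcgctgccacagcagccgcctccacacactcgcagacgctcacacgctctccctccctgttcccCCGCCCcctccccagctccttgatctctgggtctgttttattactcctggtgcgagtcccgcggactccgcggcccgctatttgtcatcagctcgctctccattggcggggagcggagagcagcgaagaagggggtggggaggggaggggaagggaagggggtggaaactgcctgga
FN1, chr2:215436069-215436318, minus strand: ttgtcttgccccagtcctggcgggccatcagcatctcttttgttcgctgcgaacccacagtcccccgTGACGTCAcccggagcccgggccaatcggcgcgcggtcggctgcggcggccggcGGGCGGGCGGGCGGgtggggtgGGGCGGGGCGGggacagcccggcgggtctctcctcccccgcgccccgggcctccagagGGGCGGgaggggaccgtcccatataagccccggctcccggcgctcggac
The ZEB1 window holds an E-box, at 57 to 52 bases before the start, and the other windows shown hold none. An E-box is in 17.5% of the 35116 windows of all genes and in 2 of the 13 windows here, both of ZEB1, which has 7. The FN1 window holds a CRE at 183 to 176 bases before the start, a motif found in 1.65% of all windows, and 6 GC boxes. The VIM, ZEB1 and CDH2 windows hold 1 GC box each, a motif found in 42.6% of all windows. No AP-1 site (6.57% of all windows) or TATA box (10.7%) is in the windows shown. These matches describe the letters and say nothing of which factor binds.

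VIM, the intermediate filament protein of mesenchymal cells, was among the most abundant transcripts of degron (-) and a middling one of degron (++). In degron (++) it had 14.7 and 16.6 FPKM at 0 Gy (48 h), 19.2 and 17.8 at 4 Gy (30 h), and 14.6 and 13.2 at 4 Gy (48 h). In degron (-) it had 2542 and 2605 FPKM at 0 Gy (48 h), 2709 and 2711 at 4 Gy (30 h), and 2529 and 2376 at 4 Gy (48 h). Every degron (-) library was thus far above every degron (++) library, and within a population the libraries lay close together. By mean FPKM over its 6 libraries, VIM ranked 14 of 23284 symbols in degron (-) and 5177 in degron (++). The mean of degron (-) was 165 times that of degron (++) at 0 Gy (48 h), 146 times at 4 Gy (30 h), and 176 times at 4 Gy (48 h). On the log2(FPKM + 1) scale, degron (++) differed from degron (-) by -7.28 (SE 0.067, adjusted p = 2.37e-11), -7.12 and -7.36 in the same order. On this scale, 6, 3 and 4 of the 12946 genes tested had a larger fall than VIM in these comparisons. The scale limits the fall of genes near 0 in degron (++). By ratio of means at 0 Gy (48 h), ZEB1 differed more than VIM, by 180 times, though its degron (++) values rest on few fragments.

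The genes whose levels followed VIM most closely over the 12 libraries, by root mean square difference of centered log2 levels, were APOE, an apolipoprotein (0.257), CD70, a ligand of the tumor necrosis factor family (0.266), and SPARC, a matrix-binding protein (0.365). For comparison, VIM itself spanned 7.58 log2 units. In degron (++) and degron (-), the mean levels were 0.419 and 216.1 FPKM for APOE and 0.0392 and 117.5 FPKM for CD70. For SPARC they were 0.052 and 101.2 FPKM. The means of these genes in degron (++) are under 1 FPKM, so their closeness to VIM depends on the pseudocount. Their ratios can be unlike that of VIM. CD70 and SPARC reached the filter only through degron (-).

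Among 13 other intermediate filament and linker genes, 6 were tested at 0 Gy (48 h). Lower in degron (++) were 4 of them, among them nestin (NES) by -4.23, synemin (SYNM) by -1.81 and lamin A/C (LMNA) by -0.50 on the log2 scale, beside 40.2% of all genes that were lower and 37.6% that were higher. Higher were 2, lamin B1 (LMNB1) by 0.92 and plectin (PLEC), which links filaments to junctions, by 0.33. The median of the list was -0.44, beside -0.02 over all genes tested.

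ZEB1, a zinc finger repressor of epithelial genes, was near 0 in degron (++). Its levels there were 0.030 and 0.059 FPKM at 0 Gy (48 h), 0.067 and 0.045 at 4 Gy (30 h), and 0.048 and 0.045 at 4 Gy (48 h). In degron (-) they were 8.17 and 7.84 FPKM at 0 Gy (48 h), 9.84 and 9.14 at 4 Gy (30 h), and 8.37 and 8.29 at 4 Gy (48 h). The populations were fully separated in every condition, and the spread within each was small. At 0 Gy (48 h) the log2 difference was -3.11 (SE 0.0649). It was -3.31 at 4 Gy (30 h) and -3.16 at 4 Gy (48 h). The log2(FPKM + 1) scale understates the change of a gene this low in a population: with a pseudocount of 0.1 the difference at 0 Gy (48 h) was -5.82. The ratio of the mean levels, 169 to 180, rests on values in degron (++) that few fragments make.

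ZEB1-AS1, the antisense transcript that starts next to ZEB1, did not share the near absence of ZEB1. It had 1.06 to 1.51 FPKM in degron (++) and 1.44 to 2.13 FPKM in degron (-), and the ranges overlapped. Its log2 difference was -0.16 at 0 Gy (48 h) (adjusted p = 0.252), -0.32 at 4 Gy (30 h) (adjusted p = 0.0403) and -0.27 at 4 Gy (48 h) (adjusted p = 0.0789), by limma. The library kit keeps the strand, but whether the counting used it is not given in the sources used here, so reads of the overlapping genes may be mixed.

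ZEB2, the paralog of ZEB1, showed the opposite order at a very low level. It was at 0.208 to 0.382 FPKM in degron (++) and at 0.028 to 0.147 FPKM in degron (-), with no overlap. The mean of degron (++) was 4.48 times that of degron (-) at 0 Gy (48 h), 5.67 times at 4 Gy (30 h) and 2.25 times at 4 Gy (48 h). It stayed below the filter, so no test is given. The genes closest to ZEB1 over the 12 libraries were RASGEF1A (0.0526), SAMD4B (0.0644) and OSTM1 (0.0647). On log2(FPKM + 1), a gene near 0 can lie close to genes with a smaller ratio. The means in degron (++) and degron (-) were 0.0282 and 8.32 FPKM for RASGEF1A. For SAMD4B they were 20.9 and 204.4 FPKM, and for OSTM1 2.90 and 35.5 FPKM.

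SNAI1 and SNAI2, the SNAIL family repressors, went in opposite directions. SNAI1 had 2.14 and 2.19 FPKM in degron (++) at 0 Gy (48 h), 2.45 and 3.20 at 4 Gy (30 h), and 3.25 and 2.82 at 4 Gy (48 h). In degron (-) it had 6.87 and 8.38, 8.90 and 8.50, and 9.67 and 10.6 FPKM in the same order. All degron (-) libraries were above all degron (++) libraries. The log2 difference was -1.44 (SE 0.115, adjusted p = 3.1e-06) at 0 Gy (48 h), -1.35 at 4 Gy (30 h), and -1.47 at 4 Gy (48 h), and the means differed by 3.08 to 3.52 times.

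SNAI2, also called SLUG, had 34.4 and 35.4 FPKM in degron (++) at 0 Gy (48 h), 35.7 and 31.6 at 4 Gy (30 h), and 34.6 and 34.0 at 4 Gy (48 h). In degron (-) it had 9.70 and 9.34, 8.14 and 7.44, and 11.8 and 13.5 FPKM in the same order. The degron (++) libraries lay within a narrow band, all above the degron (-) libraries, in which 4 Gy (48 h) was the highest group. The log2 difference was 1.77 (SE 0.0746, adjusted p = 4.65e-08) at 0 Gy (48 h), 1.98 at 4 Gy (30 h), and 1.38 at 4 Gy (48 h).

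The balance of the paralogs was unlike in the populations: the level of SNAI2 was 9.87 to 16.1 times that of SNAI1 in the degron (++) libraries. In the degron (-) libraries it was 0.876 to 1.41 times. Closest to SNAI2 over the libraries were PTPRF, a receptor tyrosine phosphatase (0.0710), GATA3, a luminal transcription factor (0.0769), and PYGL, a glycogen phosphorylase (0.0787). Closest to SNAI1 were CD59, an inhibitor of complement (0.123), ZUFSP (0.128) and PLIN2, a lipid droplet protein (0.130).

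Of the TWIST factors, which are basic helix-loop-helix proteins, TWIST1 was listed at 0 in all 12 libraries. TWIST2 was listed at 0 in the 6 degron (++) libraries. In degron (-) it had 1.19 and 0.882 FPKM at 0 Gy (48 h), 1.304 and 1.03 at 4 Gy (30 h), and 0.734 and 0.712 at 4 Gy (48 h), so that every degron (-) library was above every degron (++) library. The log2 difference was -1.02 (SE 0.0992), -1.11 and -0.78 in the same order of conditions, and its size depends on the pseudocount: it was -3.49 at 0 Gy (48 h) with 0.1. Of all 23284 symbols, 4797 were listed at 0 in all 12 libraries, as were 5 of 158 symbols of ribosomal proteins and proteasome subunits and 0 of 10 housekeeping genes, so that a 0 need not mean that a gene is silent. Closest to TWIST2 over the libraries were CECR2 (0.0837), ARID1B, a chromatin remodeling subunit (0.0847), and HDAC2, a histone deacetylase (0.0849). This closeness also depends on the pseudocount. The means in degron (++) and degron (-) were 0.013 and 0.974 FPKM for CECR2, 5.51 and 11.2 for ARID1B, and 18.3 and 35.8 for HDAC2.

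Other EMT transcription factors were mostly lower in degron (++). Of a list of 14, 9 were tested at 0 Gy (48 h), and 8 were lower and 1 was higher, beside 40.2% lower and 37.6% higher among all genes tested. FOXC2, a forkhead factor of mesenchyme, was at 0.0285 FPKM in degron (++) and 13.3 FPKM in degron (-), a log2 difference of -3.79. It reached the filter only through degron (-), so that its direction was set by the filter. HMGA2, a chromatin protein of fetal tissue, differed by -2.28, and RUNX2, a factor of bone formation, by -1.13. FOXC1 was the gene that was higher, by 1.17. The median of the list was -0.97.

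**Figure D2:**
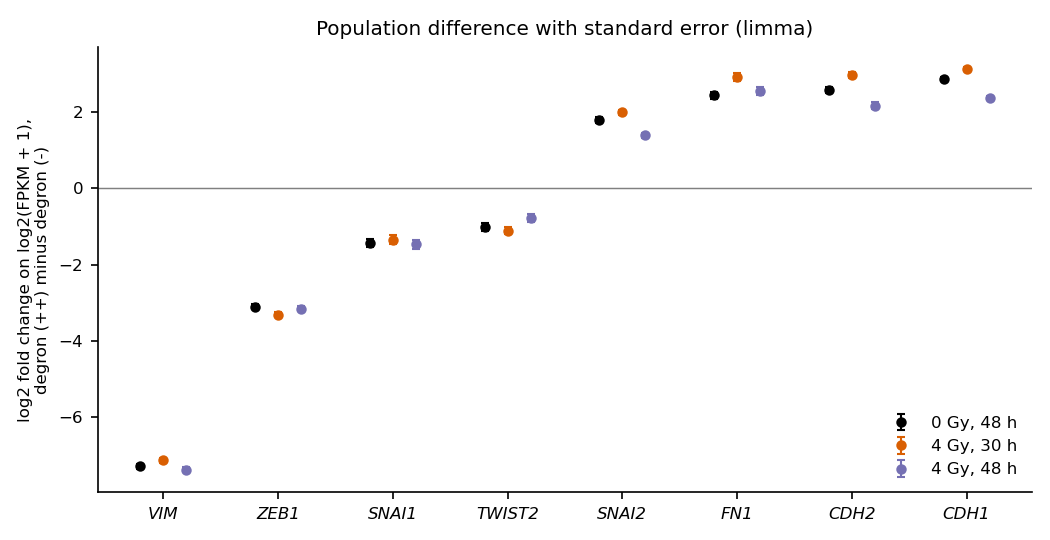
Log2 fold change of log2(FPKM + 1), degron (++) minus degron (-), with its standard error, for the 7 tested genes and CDH1 in the 3 conditions. VIM, ZEB1, SNAI1 and TWIST2 lie below 0 and SNAI2, FN1, CDH2 and CDH1 above it in all 3 conditions.

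CDH2, the N-cadherin that joins mesenchymal and neural cells, was higher in degron (++), the population with little vimentin. It had 42.1 and 41.2 FPKM in degron (++) at 0 Gy (48 h), 44.9 and 45.03 at 4 Gy (30 h), and 42.8 and 44.7 at 4 Gy (48 h). In degron (-) it had 6.83 and 5.71 FPKM at 0 Gy (48 h), 4.74 and 5.16 at 4 Gy (30 h), and 8.43 and 9.68 at 4 Gy (48 h). The degron (++) libraries were nearly level, and those of degron (-) were all lower and more spread. The mean of degron (++) was 6.64 times that of degron (-) at 0 Gy (48 h), 9.08 times at 4 Gy (30 h) and 4.83 times at 4 Gy (48 h). The log2 differences were 2.56 (SE 0.0819, adjusted p = 9.13e-09), 2.95 and 2.16 in this order.

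CDH1, the E-cadherin of epithelial junctions, was higher in degron (++) along with CDH2. It was at 62.8 to 66.6 FPKM in degron (++) and at 6.56 to 12.8 FPKM in degron (-), and the log2 difference at 0 Gy (48 h) was 2.85 (SE 0.0522, adjusted p = 3.31e-10). The populations thus differed in the amount of both cadherins and little in their balance. Their summed level was 104 to 111.2 FPKM in degron (++) and 11.3 to 22.5 FPKM in degron (-), whereas CDH1 was 1.43 to 1.56 times CDH2 in degron (++) and 1.22 to 1.39 times in degron (-).

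CDH11, a cadherin of osteoblasts and fibroblasts, was hardly listed in either population. It had 0.026 FPKM in a single degron (++) library, replicate 1 at 4 Gy (48 h), and 0 in the other 5, against 0.048 to 0.121 FPKM in degron (-). Of 19 other cadherins, 3 were tested, and all 3 were higher in degron (++) at 0 Gy (48 h), beside 37.6% of all genes tested. They were CDH1, P-cadherin (CDH3), by 2.22, and CDH24, by 0.72 on the log2 scale. Of 11 catenins and partners of cadherins, 8 were tested, with 5 higher and 2 lower, beside 37.6% and 40.2% of all genes, and a median of 0.36. Plakoglobin (JUP) was higher by 1.004, alpha-catenin (CTNNA1) by 0.80 and p120-catenin (CTNND1) by 0.46. Vinculin (VCL), which ties junctions and focal adhesions to actin, was lower by -1.75, and CTNNBIP1, an inhibitor of beta-catenin, by -0.65.

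Closest to CDH2 over the 12 libraries were TINAGL1, a secreted matricellular protein (0.0416), TNS4, a tensin of focal adhesions (0.0631), and ARHGDIB (0.0632). TINAGL1 had a mean level of 91.4 FPKM in degron (++) and 15.03 FPKM in degron (-).

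FN1, the matrix glycoprotein fibronectin, was higher in degron (++) as well. It had 13.2 and 12.5 FPKM in degron (++) at 0 Gy (48 h), 17.1 and 14.1 at 4 Gy (30 h), and 18.2 and 18.1 at 4 Gy (48 h). In degron (-) it had 1.68 and 1.47 FPKM at 0 Gy (48 h), 1.21 and 1.201 at 4 Gy (30 h), and 2.08 and 2.56 at 4 Gy (48 h). Every degron (++) library was above every degron (-) library. The means differed by 8.13, 12.9 and 7.82 times in this order, and the log2 differences were 2.42 (SE 0.0987, adjusted p = 3.79e-08), 2.91 and 2.53. Closest to FN1 were SLC7A2, an amino acid transporter (0.109), LINC00162 (0.135) and ZBED2 (0.136).

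Receptors of fibronectin were found on both sides. Of 10 receptor genes, 8 were tested at 0 Gy (48 h), and 6 were lower and 2 higher in degron (++), beside 40.2% and 37.6% of all genes, with a median of -0.79. ITGA5, the alpha subunit of the classical fibronectin receptor, was at 1.01 FPKM in degron (++) and 26.9 FPKM in degron (-), a log2 difference of -3.80. ITGB3 differed by -1.99 and ITGB5 by -1.46, and the direction of ITGB3 was set by the filter, which it reached only through degron (-). ITGB6, an epithelial integrin subunit, was higher by 2.88, and SDC4, a syndecan co-receptor, by 0.76.

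Other mesenchymal and matrix genes were split as well. Of a list of 28, 22 were tested, and 16 were lower and 6 higher in degron (++) at 0 Gy (48 h), with a median of -1.60, beside 40.2% lower and 37.6% higher among all genes. Of the 22, 7 reached the filter only through degron (-) and 1 only through degron (++), so that their direction was set by the filter. SPARC differed by -6.71, MMP2, a gelatinase, by -5.87, and the collagen gene COL5A2 by -5.21. SPARC, MMP2 and COL5A2 are among the 7 that reached the filter only through degron (-). These 7 are counted in the 16 lower genes and in the median. Caldesmon (CALD1) was higher by 2.15, the membrane protease MMP14 by 2.15 and thrombospondin (THBS1) by 1.91.

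Epithelial genes that EMT factors are known to oppose were mostly higher in degron (++). All 27 of a list were tested, and 26 were higher and 0 lower at 0 Gy (48 h), beside 37.6% higher and 40.2% lower among all genes. The median was 2.21, beside -0.02 over all genes tested. Of the 27, 1 reached the filter only through degron (++), so that its direction was set by the filter. The largest differences were those of ELF3, an epithelial ETS factor (3.41), MAL2, a protein of apical transport (2.999), and CDH1. The exception was GRHL1, at 1.26 FPKM in degron (++) and 1.72 FPKM in degron (-), with a log2 difference of -0.26 (adjusted p = 0.0759, limma). At 4 Gy (30 h) it was lower by -0.41 (adjusted p = 0.0118), and at 4 Gy (48 h) the difference was -0.11 (adjusted p = 0.449). At 0 Gy (48 h) it passed the threshold as lower when FPKM were rescaled to a sum of 1000000 per library (TPM), or when only the libraries compared were fitted, or without either degron (-) library at 4 Gy (48 h). CDH1, JUP, EPCAM, SOX9 and COL1A1 stand in more than 1 list.

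**Figure D3:**
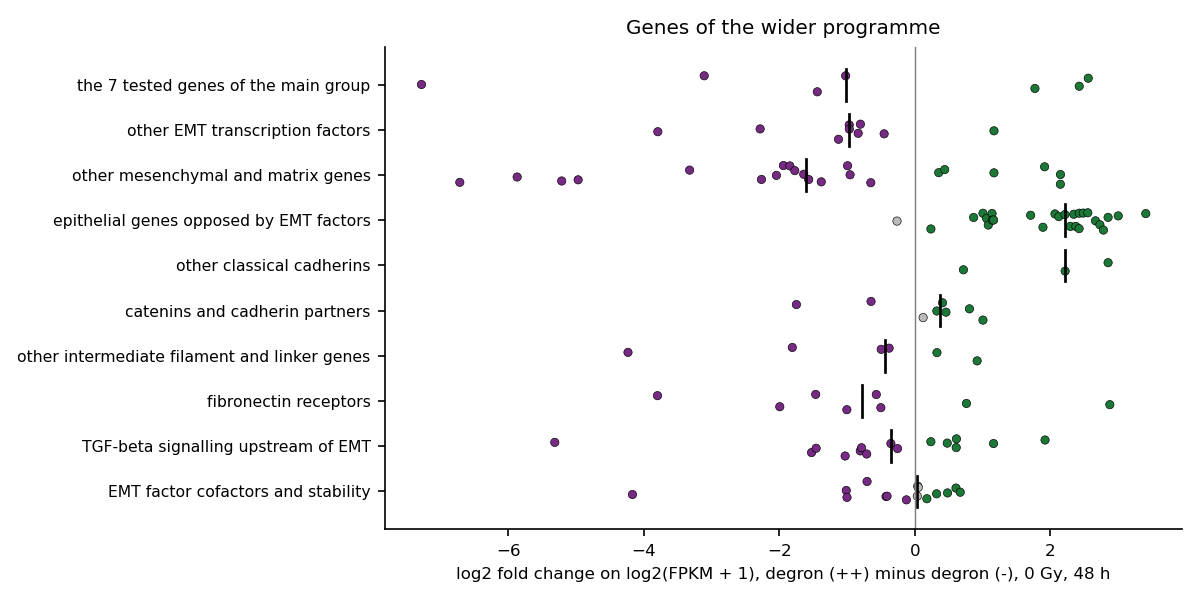
Log2 fold change of log2(FPKM + 1), degron (++) minus degron (-), at 0 Gy (48 h), for the tested genes of each list, with green for higher, purple for lower, gray for genes that did not pass the threshold, and a bar for the median of the list. The epithelial genes have a median of 2.21, the other mesenchymal and matrix genes a median of -1.60, and the 7 tested genes lie on both sides of 0.

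The microRNAs that oppose ZEB1 and ZEB2 are short, and libraries of this kind, made from messenger RNA, hold their host transcripts rather than the mature forms. The sequences are shown because the families differ in seed, the bases 2 to 8 in capitals through which they pair with targets. They are from RefSeq.
hsa-miR-205-5p: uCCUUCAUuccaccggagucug
hsa-miR-200c-3p: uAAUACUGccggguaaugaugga
hsa-miR-141-3p: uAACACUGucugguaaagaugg
MIR200A, MIR200B, MIR200C, MIR141 and MIR429 were listed at 0 in all 12 libraries, so no difference can be given for this family. MIR205HG, the host gene of miR-205, was at 8.07 to 9.96 FPKM in degron (++) and at 1.33 to 2.70 FPKM in degron (-), and the log2 difference at 0 Gy (48 h) was 1.86 (adjusted p = 7.33e-06, limma). MIR205 itself was listed at 58.2 to 59.7 FPKM in 3 degron (++) libraries, both at 0 Gy (48 h) and 1 at 4 Gy (30 h), and at 0 in the other 9. FPKM divides by length, so that few fragments on so short a gene give a value of this size.

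Markers of other cell types were examined beside these differences. Of 9 fibroblast markers, 3 were tested at 0 Gy (48 h): COL1A1 and THY1 were lower in degron (++), by -4.97 and -1.97, and LUM was higher by 3.44. COL1A1 and THY1 reached the filter only through degron (-), so that their direction was set by the filter. COL1A2 and DCN were listed at 0 in all 12 libraries. The summed level of the 9 was 14.5 to 25.5 FPKM in degron (++) and 40.9 to 57.0 FPKM in degron (-). Of 6 leukocyte markers, CD68, a lysosomal protein, was lower by -5.06. CD14 was higher by 1.07, but it reached the filter only through degron (++). The summed level of the 6 was 4.50 to 6.44 FPKM in degron (++) and 124.6 to 165.2 FPKM in degron (-), and CD3E was listed at 0 throughout. The 6 endothelial markers were each under 1 FPKM in all libraries. The ductal markers were higher in degron (++) for 7 of 8, among them KRT7 (2.66), CDH1 and EPCAM (2.21), beside 37.6% of all genes tested. SOX9 was lower (-0.97), beside 40.2% of all genes. The summed level of the 8 was 7243 to 8435 FPKM in degron (++) and 4284 to 5195 FPKM in degron (-). The part of all these markers in the differences of the 10 genes was not tested.

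With dose, 0 of the 7 tested genes passed the threshold in degron (++), where 1.82% of all genes did. At an unadjusted p under 0.05, 3 did, namely FN1, SNAI1 and VIM, beside 17.6% of all genes. TWIST2, listed at 0 in all 6 degron (++) libraries, could not pass, and ZEB1, at 0.067 FPKM or less there, hardly could. FN1 had 12.8 ± 0.482 FPKM at 0 Gy and 18.2 ± 0.105 FPKM at 4 Gy (SD, n = 2 each), and its log2 difference of 0.47 (SE 0.0987) had an adjusted p of 0.0532 (limma). SNAI1 differed by 0.35 (adjusted p = 0.167) and VIM by -0.15 (adjusted p = 0.28). With a filter at FPKM 5, or without either degron (++) library at 4 Gy (30 h), 1 of the tested genes passed.

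In degron (-), CDH2 and SNAI2 were higher at 4 Gy than at 0 Gy at 48 h, 2 of the 7 tested genes, beside 4.73% of all genes, and 3.85% that were higher. CDH2 went from 6.27 ± 0.790 to 9.06 ± 0.885 FPKM, a log2 difference of 0.47 (SE 0.0819, adjusted p = 0.0175). SNAI2 went from 9.52 ± 0.249 to 12.6 ± 1.17 FPKM, a log2 difference of 0.37 (SE 0.0746, adjusted p = 0.0293). CDH1 was higher in the same comparison, by 0.56 (adjusted p = 0.00155). FN1 differed by 0.36 (adjusted p = 0.0755) and SNAI1 by 0.38 (adjusted p = 0.106), while VIM (-0.07) and ZEB1 (0.05) differed by little. CDH2 did not pass without degron (-) replicate 2 at 4 Gy (48 h) (adjusted p = 0.111) or without degron (-) replicate 2 at 0 Gy (0.0853). SNAI2 did not pass without these (0.168 and 0.132), without degron (-) replicate 1 at 0 Gy (0.0807), or without degron (++) replicate 1 or 2 at 0 Gy (0.0505 and 0.0506). It was also lost with TPM (0.0588), and both calls were lost when only the libraries compared were fitted (0.203 for CDH2 and 0.185 for SNAI2). The test of whether the dose effect differed between the populations gave 0 of the 7 genes, and 10 genes (0.0772%) of all. For CDH2 the difference was -0.40 (unadjusted p = 0.00752, adjusted p = 0.192) and for SNAI2 -0.40 (unadjusted p = 0.00491, adjusted p = 0.177), and no other of the 7 had an unadjusted p under 0.05, beside 13.6% of all genes.

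Between 30 h and 48 h at 4 Gy, degron (++) had 1 call among the 7 genes, beside 1.21% of all genes, and 0.548% that fell. Again TWIST2, at 0 in degron (++), could not pass, and ZEB1, near 0, hardly could. VIM fell from 18.5 ± 0.989 to 13.9 ± 1.03 FPKM, a log2 difference of -0.39 (SE 0.067, adjusted p = 0.0388). The size of the difference stayed between -0.46 and -0.32 over the alternatives, but the call did not hold up: it was lost with no filter, quantile normalization, TPM, eBayes without trend, a block for the replicate number and only the libraries compared, and without any 1 of 10 libraries, namely every library except the 2 of degron (++) at 0 Gy. The adjusted p without a library ranged up to 0.167.

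In degron (-), CDH2, FN1 and SNAI2 were higher at 48 h than at 30 h, 3 of the 7 genes, beside 7.18% of all genes, and 6.01% that were higher. These are the genes that were higher in degron (++). CDH2 went from 4.95 ± 0.296 to 9.06 ± 0.885 FPKM, a log2 difference of 0.76 (SE 0.0819, adjusted p = 0.0013). SNAI2 went from 7.79 ± 0.491 to 12.6 ± 1.17 FPKM (0.63, SE 0.0746, adjusted p = 0.00194). FN1 went from 1.21 ± 0.00636 to 2.32 ± 0.339 FPKM (0.59, SE 0.0987, adjusted p = 0.0098). In each of the 3, both libraries at 48 h were above both at 30 h. CDH1 differed by 0.79 (adjusted p = 0.000176). The genes that were lower in degron (++) were not called: VIM differed by -0.14 (adjusted p = 0.248), ZEB1 by -0.17 (0.169), TWIST2 by -0.33 (0.0889) and SNAI1 by 0.20 (0.356). FN1 did not pass without degron (-) replicate 1 or 2 at 30 h (adjusted p = 0.0633 and 0.0529) or without replicate 2 at 48 h (0.084). All 3 calls were lost when only the libraries compared were fitted (adjusted p = 0.0859 for CDH2, 0.0957 for SNAI2 and 0.108 for FN1).

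The test of whether the time effect differed between the populations called CDH2 and SNAI2, beside 3.23% of all genes, and 2.72% in that direction. The change in degron (++) minus that in degron (-) was -0.79 for CDH2 (SE 0.116, adjusted p = 0.0139) and -0.60 for SNAI2 (SE 0.105, adjusted p = 0.024), since degron (++) itself changed by -0.04 and 0.03. CDH1 had a difference of -0.76 (adjusted p = 0.0039) and FN1 one of -0.37 (adjusted p = 0.202). CDH2 did not pass without degron (++) replicate 1 or 2 at 30 h, degron (++) replicate 1 at 48 h or degron (-) replicate 1 at 30 h (adjusted p = 0.0544 to 0.0626). SNAI2 did not pass without degron (++) replicate 1 at 30 h, either degron (++) library or degron (-) replicate 2 at 48 h, or either degron (-) library at 30 h (adjusted p = 0.0626 to 0.0795).

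The level in degron (-) relative to degron (++) was set beside that of the neighboring genes CDKN2A, CDKN2B and MTAP of the chromosome arm 9p. CDH2 in a degron (-) library was 10.6% and 11.5% of the degron (++) mean at 4 Gy (30 h), 16.4% and 13.7% at 0 Gy (48 h), and 19.3% and 22.1% at 4 Gy (48 h). SNAI2 was at 24.2% and 22.1%, 27.8% and 26.8%, and 34.4% and 39.2% in the same order. Both genes were thus lowest at 30 h and highest at 4 Gy (48 h). CDH1 was at 10.1% and 10.4%, 13.1% and 12%, and 17.6% and 19.2%. CDKN2A was at 12.2% and 10.9%, 17.9% and 14.5%, and 19.5% and 17.6%. CDKN2B ranged from 8.91% to 19.1% and MTAP from 15.8% to 29.3%, with the same order of the groups by their means. Between 30 h and 48 h in degron (-), CDKN2A differed by 0.73 (adjusted p = 0.00277), CDKN2B by 0.80 (0.00315) and MTAP by 0.55 (0.0028). The level of VIM in degron (-) took the opposite order, with 2710.2 ± 1.41, 2573 ± 44.4 and 2452 ± 108 FPKM (SD, n = 2 each), although it was not called for dose or time there. What these levels share was not tested.

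**Figure D4:**
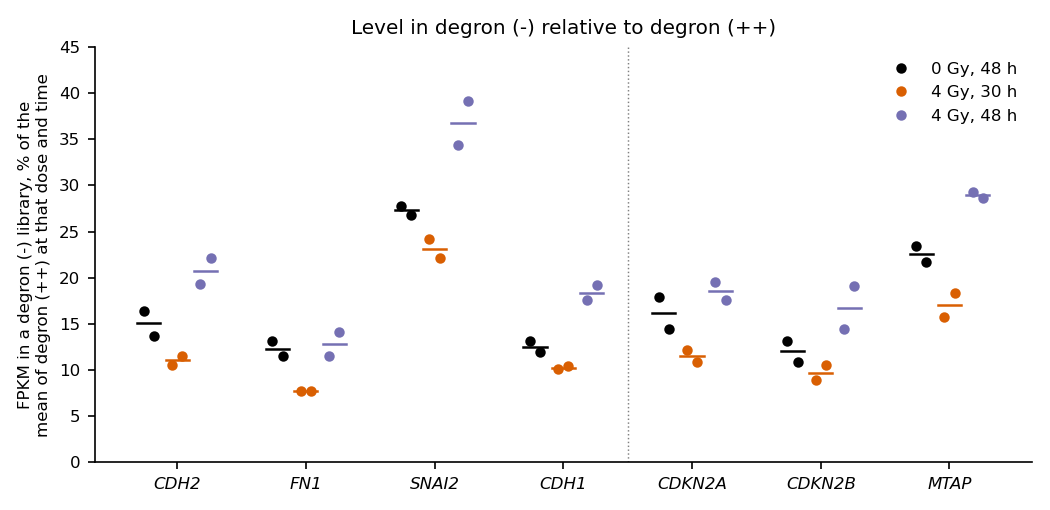
Level in each degron (-) library as a percent of the mean of the degron (++) libraries at the same dose and time, with a bar for the mean of 2 libraries, for CDH2, FN1, SNAI2 and CDH1 and, right of the dotted line, for CDKN2A, CDKN2B and MTAP. For CDH2 the values run from 10.6% and 11.5% at 4 Gy (30 h) to 19.3% and 22.1% at 4 Gy (48 h), and the 4 Gy, 30 h group is the lowest for all 7 genes.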

How the data were processed

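RNA of 12 samples of PANC-1 degron (++) and degron (-) cells was extracted with a miRNeasy Micro kit and made into libraries with a TruSeq stranded mRNA kit. The authors computed FPKM per gene symbol and deposited 1 table per library. The submitters' processing notes name TopHat2 2.1.1, Bowtie2 2.2.8, SAMtools 0.1.18, Cuffdiff 2.2.1 and hg19, and the annotation is not given in the sources used here. An FPKM of 0 can be a failed estimate and is called listed at 0 in the text.

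Values of log2(FPKM + 1) were tested with limma 3.58.1 (lmFit, eBayes with trend) in R 4.3.3, with 6 group means over all 12 libraries, on the 12946 genes that reached 1 FPKM in 2 or more libraries. Genes with a Benjamini-Hochberg adjusted p under 0.05 over all genes tested were called. Of the genes tested, 1119 reached this level only within degron (-) and 580 only within degron (++), so that their direction was set by the filter. A call in a list is described by counts and a median, beside those of all genes. On simulated data of 12946 genes, with 200 changed, 90.7% to 97.0% of changes of 1 log2 unit and 96.0% to 100% of changes of 2 were recovered, with 3 to 15 false calls per comparison. The simulation used independent normal noise around a common mean per gene and changed genes in a single group. Between the populations, 76.7% to 79.1% of genes were called in the real data, so that these rates need not hold there. Other steps used Python 3.11.15, with pandas 2.3.3, numpy 2.4.6 and matplotlib 3.10.9.

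The 10 genes and the lists were chosen with earlier results of these data known. Named genes are the 10, CDH1, the up to 3 largest rises and falls past the threshold of each list at 0 Gy and 48 h, and the 3 nearest genes of each tested member. ZEB1-AS1, CDKN2A, CDKN2B and MTAP were chosen after their values were seen or known. The alternatives were a pseudocount of 0.1, a filter at FPKM 5 or none, quantile normalization, rescaling to TPM, eBayes without trend, a block for the replicate number, fits of only the libraries compared, and leaving out each library. RefSeq sequences are on GRCh38.p14, and no coordinates were converted.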

Additional observations from a re-analysis of the deposited data

Results flagged for a closer look

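The time effect at 4 Gy differed between the populations for CDH2 and SNAI2 by a test of the difference itself, the interaction term of time and population in limma. For CDH2 the change from 30 h to 48 h in degron (++) minus that in degron (-) was -0.79 on the log2 scale (SE 0.116, adjusted p = 0.0139): all 4 degron (++) libraries lay between 42.8 and 45.03 FPKM, while degron (-) went from 4.74 and 5.16 to 8.43 and 9.68 FPKM. For SNAI2 the value was -0.60 (SE 0.105, adjusted p = 0.024): degron (++) had 35.7 and 31.6 FPKM at 30 h and 34.6 and 34.0 at 48 h, while degron (-) went from 8.14 and 7.44 to 11.8 and 13.5 FPKM. Over the alternatives the value of CDH2 ranged from -0.90 to -0.70, with adjusted p up to 0.0626, and that of SNAI2 from -0.69 to -0.52, with adjusted p up to 0.0795. The cause was not tested.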

How the results depend on the processing

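In the population comparisons, VIM, SNAI1, SNAI2, FN1 and CDH2 kept their direction and their call under every alternative run, and ZEB1 and TWIST2, which entered only through degron (-), their direction (TWIST2 did not pass the filter at FPKM 5), with log2 differences at 0 Gy (48 h) of -7.50 to -7.19 for VIM, -5.82 to -2.81 for ZEB1, -3.49 to -0.72 for TWIST2, -1.76 to -1.31 for SNAI1, 1.59 to 1.86 for SNAI2, 2.35 to 2.95 for FN1 and 2.40 to 2.72 for CDH2. TPM rescaling moved the median log2 difference of all genes from -0.02, -0.02 and -0.01 to -0.21, -0.27 and -0.25 in the 3 conditions. The counts of calls among the 7 genes were less stable within populations. For dose in degron (++), 0 calls became 1 with the filter at FPKM 5, and leaving out a library gave 0 to 1. For dose in degron (-), 2 calls became 3 with a pseudocount of 0.1, 1 with TPM and 0 with only the libraries compared, and leaving out a library gave 0 to 2. For time in degron (++), 1 call became 0 with no filter, quantile normalization, TPM, eBayes without trend, the replicate block and only the libraries compared, and leaving out a library gave 0 to 1. For time in degron (-), 3 calls became 0 with only the libraries compared, and the call of FN1 did not hold without some single libraries, as given above. For time by population, 2 calls became 1 with only the libraries compared, and leaving out a library gave 0 to 2. Fits of only the libraries compared have few residual degrees of freedom. Among the lists at 0 Gy (48 h), no filter gave 2 higher other EMT factors, 3 lower other cadherins, 8 lower filament genes and 2 higher leukocyte markers. The filter at FPKM 5 gave 1 lower fibroblast marker and 0 higher leukocyte markers. TPM gave 1 lower epithelial gene and 3 higher cofactors. Fits of only the libraries compared gave 1 lower epithelial gene, and leaving out a library gave 0 to 1. The replicate numbers did not pair the libraries: the differences of replicate 1 and 2 correlated by -0.0381 to 0.122 over 15 pairs of groups, 2 of them over 0.1. With the replicate block, VIM in degron (++) over time had an adjusted p of 0.0659 and was the only lost call among the 7 genes. With 2 libraries per group and FPKM without counts, the error of low values such as those of ZEB1 and CDH11 in degron (++), or ZEB2 in degron (-), is not known.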

Other observations

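Genes of TGF-beta signaling, a main inducer of EMT, were split between the populations. All 15 of the list were tested at 0 Gy (48 h), and 9 were lower and 6 higher in degron (++), beside 40.2% lower and 37.6% higher among all genes tested, with a median of -0.35. LTBP2, a matrix protein related to those that bind latent TGF-beta, was at 0.633 FPKM in degron (++) and 63.8 FPKM in degron (-), a log2 difference of -5.31. TGFB3, a ligand, differed by -1.52 and LTBP1 by -1.46. LTBP2 and TGFB3 reached the filter only through degron (-), so that their direction was set by the filter. INHBA, the activin subunit, was higher in degron (++), at 54.4 against 13.6 FPKM (1.92), as were the receptor TGFBR2 (1.16) and the ligand TGFB2 (0.61).

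Cofactors and regulators of the stability of EMT factors were also split. Of a list of 16, 15 were tested, and 7 were lower and 5 higher in degron (++), beside 40.2% and 37.6% of all genes, with a median of 0.04. PAK1, a kinase known to act on SNAI1, was at 0.596 FPKM in degron (++) and 27.6 FPKM in degron (-), a log2 difference of -4.17. PAK1 reached the filter only through degron (-), so that its direction was set by the filter. BMI1, a polycomb protein, differed by -1.01 and the corepressor subunit HDAC2 by -1.002. Higher were GSK3B, a kinase that marks SNAI1 for breakdown (0.67), the ubiquitin ligase subunit FBXL14 (0.61) and the corepressor CTBP2 (0.48).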
